A study of Mus musculus with 12 samples.

Results

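A group of 10 regulators of limb patterning that lie outside the Hox clusters was followed across mouse embryonic fibroblasts (MEFs) that express NRAS with a different residue at position 61. They are Tbx4, Tbx5, Pitx1, Lhx2, Lhx9, Lmx1b, En1, Tfap2a, Shox2 and Lmbr1, which make up 10 of the 24419 genes in the count table, and 10 of 10 were among the 15759 genes that passed the filter on low counts. The genes were chosen from what is known of limb development with earlier results of these data in view, among them the difference between 61R/R and 61H/H cultures. That contrast is therefore given as values only, and the other comparisons share libraries with it. Which of those other comparisons weighed in the choice is not recorded, so the counts of regulators called over 61Q/Q may not be free of it and are given as descriptions.

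RNA was sequenced from 12 MEF cultures, 3 biological replicates of each genotype: Nras 61R/R (arginine), 61H/H (histidine), 61P/P (proline) and 61Q/Q (glutamine, the wild-type residue). All 12 came from C57BL/6 TN embryos at mid-gestation, which carry a melanocyte-restricted Tyr::CreER-T2 transgene and 2 copies of a Nras allele silenced by a loxP-flanked stop cassette (LSL). In every culture, 61Q/Q included, an adenovirus that carries Cre and eGFP behind the CMV promoter removed the stop, and the cells were grown for 6 more days. The 61H, 61P and 61Q alleles were made by editing the 61R allele in zygotes, so each genotype stands for its own allele line.

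The limb bud grows out under signals that pass between its mesenchyme and the overlying ectoderm, whose thickened tip, the apical ridge, secretes FGFs. Tbx5 marks and builds the forelimb, whereas Tbx4 and its upstream regulator Pitx1 mark the hindlimb. Lmx1b gives the mesenchyme its dorsal identity and En1 works in the ventral ectoderm, while fibroblasts taken from different body sites are known to keep part of such positional programmes in culture. MEFs hold cells from much of the embryo, and in bulk RNA fewer cells of a type and less RNA per cell cannot be told apart.

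The promoter sequences of 3 regulators are shown because their changes over 61Q/Q differed in pattern. En1 was lower in all 3 mutants and Lmbr1 was called lower in 61H/H cultures alone. Lhx9 was higher in every 61H/H and 61P/P culture than in any 61Q/Q culture, and only its 61H/H change was called. Each runs from 250 bases before to 50 bases after a RefSeq start (GRCm38.p6), 5′ to 3′ on the gene's strand, in lower case with motif matches in capitals. En1 is at chr1:120602237-120602536 on the plus strand, Lhx9 at chr1:138842395-138842694 on the minus strand, an internal start downstream of the 5′ end of the counted gene model, and Lmbr1 at chr5:29378341-29378640 on the minus strand.
En1: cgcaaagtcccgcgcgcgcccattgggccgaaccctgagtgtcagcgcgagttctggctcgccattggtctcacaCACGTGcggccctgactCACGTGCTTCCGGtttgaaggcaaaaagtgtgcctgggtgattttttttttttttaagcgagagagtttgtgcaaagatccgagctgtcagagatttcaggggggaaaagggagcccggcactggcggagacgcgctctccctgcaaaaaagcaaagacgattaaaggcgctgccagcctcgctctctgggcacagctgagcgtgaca
Lhx9: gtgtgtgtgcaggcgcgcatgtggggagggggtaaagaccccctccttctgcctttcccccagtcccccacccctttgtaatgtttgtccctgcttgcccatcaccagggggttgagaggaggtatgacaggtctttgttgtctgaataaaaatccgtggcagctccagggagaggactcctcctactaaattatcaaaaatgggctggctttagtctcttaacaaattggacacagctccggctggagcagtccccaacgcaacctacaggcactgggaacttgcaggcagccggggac
Lmbr1: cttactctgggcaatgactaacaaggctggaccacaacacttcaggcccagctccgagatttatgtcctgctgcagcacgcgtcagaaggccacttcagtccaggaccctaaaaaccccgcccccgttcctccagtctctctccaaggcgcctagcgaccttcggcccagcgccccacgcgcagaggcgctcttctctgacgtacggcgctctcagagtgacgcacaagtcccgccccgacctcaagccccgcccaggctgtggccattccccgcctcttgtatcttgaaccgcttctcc
In all, 5 motifs were searched on both strands: the homeodomain core TAATTA, the Pitx core TAATCC, the T-box core GGTGTGA, the ETS core CCGGAAG and the E-box CACGTG. The En1 window held CACGTG at 175 and 158 bases before the start and, on the opposite strand, CCGGAAG at 152 bases before it, directly next to the second E-box. Of 32851 promoters of that length, 7.15% held CACGTG and 8.86% held CCGGAAG. The Lhx9 and Lmbr1 windows held none of the 5 motifs. RefSeq windows were at hand for 8 of the 10 genes (10 windows), and the only other match was TAATTA in that of Tfap2a, 32 bases before the start, a motif found in 5.29% of all promoters. TAATCC was found in 7.06% of all promoters and GGTGTGA in 3.98%, and in none of the 10 windows.

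Library totals ran between 73222911 and 92179519 counts, of which the ribosomal Rn45s gene took 8.89% to 13.9%. The fibroblast label was checked against markers: the summed level of 9 markers such as Col1a1, Pdgfra and Vim was 14678 to 24636 CPM (counts scaled to the library's effective total) in 61R/R cultures, 14464 to 16129 CPM in 61H/H cultures and 21908 to 26849 CPM in 61P/P cultures, against 29158 to 40427 CPM in 61Q/Q cultures. The 9 did not move together: in 61H/H over 61Q/Q 2 were called higher and 5 lower (13.8% and 14.5% of all genes). Col1a1 averaged 4519 CPM in 61H/H cultures against 16973 CPM in 61Q/Q cultures. By contrast Pdgfra averaged 202 against 95.1 CPM and Vim 4558 against 3597 CPM. Of 10 ectoderm and keratinocyte markers, 9 averaged under 1 CPM and none was at 0 in all libraries, and their sum was 5.41 to 9.94 CPM in 61R/R cultures, 6.08 to 8.45 CPM in 61H/H cultures and 3.35 to 3.95 CPM in 61P/P cultures, against 4.40 to 5.80 CPM in 61Q/Q cultures. The sum of 6 cartilage markers was 81.6 to 86.4 CPM in 61R/R cultures, 59.6 to 73.6 CPM in 61H/H cultures and 104 to 241 CPM in 61P/P cultures, against 78.1 to 173 CPM in 61Q/Q cultures, with 3 of the 6 under 1 CPM. The sum of 5 endothelial markers, 2 of them under 1 CPM, was 7.53 to 9.58 CPM in 61R/R cultures, 10.6 to 13.6 CPM in 61H/H cultures and 9.76 to 13.5 CPM in 61P/P cultures, against 7.41 to 8.55 CPM in 61Q/Q cultures. Like Tbx4, Lhx2 and Lhx9, this sum was higher in every 61H/H and 61P/P culture than in any 61R/R or 61Q/Q culture. Of the 5, Tek alone was split in this way. It averaged 4.40 CPM in 61H/H and 5.29 CPM in 61P/P cultures, against 2.24 CPM in 61R/R and 1.25 CPM in 61Q/Q cultures. The means of Emcn went the other way, at 0.979 and 1.24 CPM against 1.71 and 1.40 CPM, but its cultures overlapped, as did those of Pecam1, Cdh5 and Kdr. The sum of 7 macrophage markers, none under 1 CPM, was 43.4 to 76.9 CPM in 61R/R cultures, 36.5 to 58.1 CPM in 61H/H cultures and 36.4 to 109 CPM in 61P/P cultures, against 82.7 to 131 CPM in 61Q/Q cultures. Of these, 4 of the 7 were called lower in 61H/H over 61Q/Q. For 7 neuronal markers, 4 of them under 1 CPM, the sum was 19.2 to 31.3 CPM in 61R/R cultures, 22.3 to 25.4 CPM in 61H/H cultures and 31.6 to 43.5 CPM in 61P/P cultures, against 30.4 to 52.1 CPM in 61Q/Q cultures. The sums of the markers of skeletal muscle (8, of which 5 under 1 CPM) and of neural crest, glia and melanocytes (10, of which 8 under 1 CPM) overlapped between each mutant and 61Q/Q. No marker of any list was at 0 in all libraries. The part of such cells in the results was not tested.

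Some libraries stood apart from their genotype. In the fibroblast sum 61R/R replicate 1 (24636 CPM) stood apart from the other 61R/R cultures (14678 and 15510 CPM), and 61Q/Q replicate 2 was the lowest 61Q/Q culture. Without both, a choice made after the data were seen, the number of regulators called over 61Q/Q was 1 in 61R/R cultures, 7 in 61H/H cultures and 4 in 61P/P cultures. Of all genes, 5590, 5892 and 3190 were then called, against 2997, 4451 and 1079 with 12 libraries. The regulators were not all those called with 12 libraries: Lmx1b took the place of Pitx1 in 61H/H cultures and of Lhx2 in 61P/P cultures. In 61H/H replicate 1 and 61P/P replicate 1 no read was counted for Pax7, a paired-box factor of muscle precursors and the dorsal neural tube. It was at 2.18 and 3.07 CPM in the other 61H/H cultures, 1.60 and 1.12 CPM in the other 61P/P cultures and 0.781 to 3.70 CPM in the 61R/R and 61Q/Q cultures. Alx4, a paired-type homeodomain factor of the anterior limb bud, was likewise lowest there. It was at 5.73 CPM in 61H/H replicate 1 against 20.6 and 21.4 CPM in the other 61H/H cultures. It was at 11.2 CPM in 61P/P replicate 1 against 21.9 and 17.1 CPM in the other 61P/P cultures. Its relative Alx1 was at 2.03 CPM in 61H/H replicate 1 and 3.67 CPM in 61P/P replicate 1. These 3 genes were chosen after their values were seen, and the part of these differences in the results was not tested. Without 61H/H replicate 1 the number of regulators called in 61H/H over 61Q/Q was 5 (2198 of all genes). Without 61P/P replicate 1 the number in 61P/P over 61Q/Q was 3 (224 of all genes). Without both, again chosen after the data were seen, it was 1 in 61R/R cultures, 6 in 61H/H cultures and 5 in 61P/P cultures, beside 3418, 3129 and 423 of all genes. Pitx1 was then lost in 61H/H cultures (0.55, adjusted p = 0.0723) and Lhx9 gained in 61P/P cultures (0.76, adjusted p = 0.0288).

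The regulators were expressed at low to moderate levels. Per kilobase of exon, Shox2 was the most abundant at a mean of 7.49 CPM per kilobase over the 12 libraries, followed by Pitx1 (5.40), Lhx9 (5.23), Tbx4 (4.52), En1 (3.25), Tfap2a (3.13), Lmbr1 (2.32), Lmx1b (1.83), Tbx5 (1.70) and Lhx2 (0.889 CPM per kilobase). Neighbours in this order overlapped over the libraries: Pitx1 ranged between 2.91 and 10.0, Lhx9 between 2.82 and 9.28 and Tbx4 between 1.77 and 8.37 CPM per kilobase. Raw counts were lowest for Lmx1b, at 65 to 300 reads per library, and for Lhx2, at 110 to 485 reads.

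**Figure D1:**
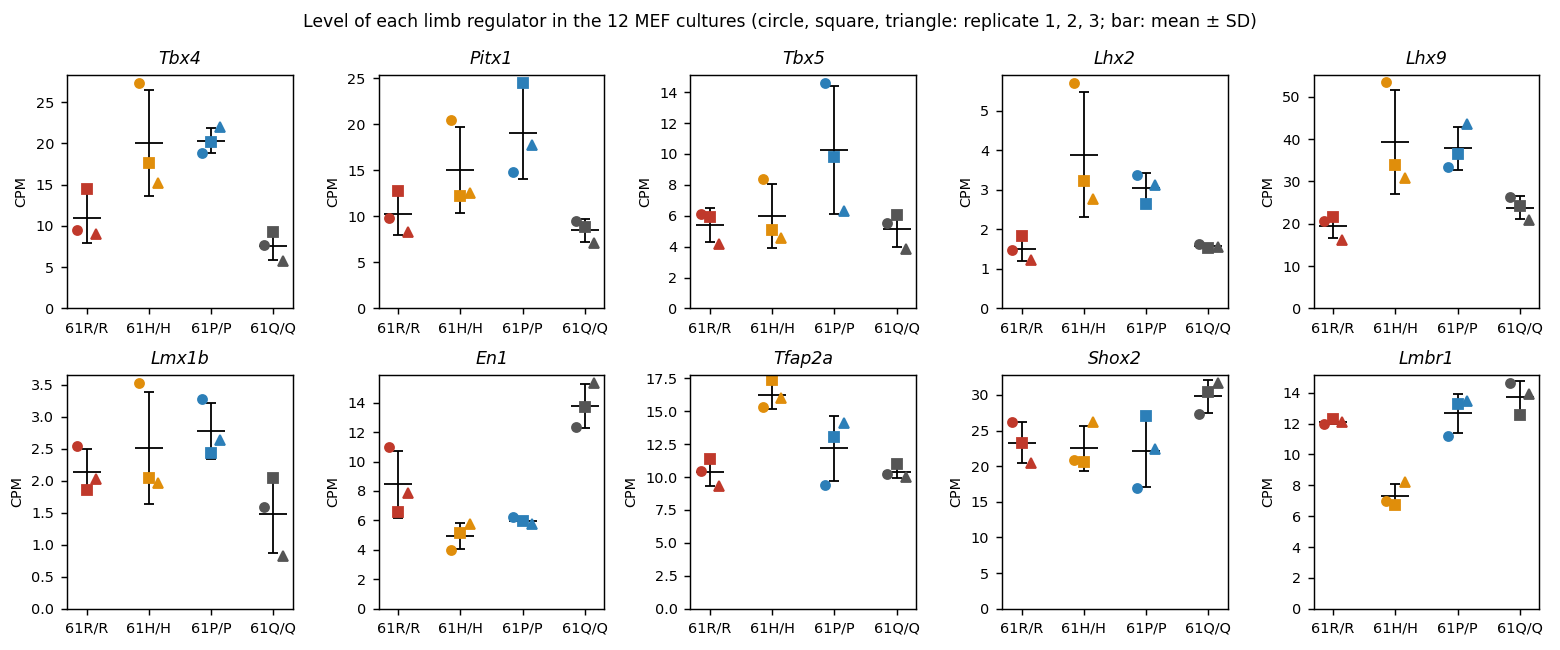
Level of each regulator (y axis, CPM) in each of the 12 cultures, with the 3 mutants to the left of 61Q/Q and a bar for the mean ± SD of 3 cultures. The 3 61H/H and 3 61P/P cultures lie above all 61R/R and 61Q/Q cultures for Tbx4, Lhx2 and Lhx9 and below them for En1, and Lmbr1 is low in 61H/H cultures. The split of 61H/H and 61P/P from 61R/R and 61Q/Q cultures was noticed after the values were seen. It contains the contrast in view when the genes were chosen.

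The hindlimb pair Tbx4 and Pitx1 was higher in 61H/H cultures and 61P/P cultures than in 61Q/Q cultures. Tbx4, a T-box factor of hindlimb outgrowth (chr11:85890063-85916097, plus strand, 9 exon blocks, mm10), stood at 27.3, 17.7 and 15.1 CPM in 61H/H cultures and 18.9, 20.2 and 21.9 CPM in 61P/P cultures, against 7.70, 9.23 and 5.78 CPM in 61Q/Q cultures. All 6 of those mutant cultures exceeded all 3 61Q/Q cultures. The log2 fold change was 1.40 (SE 0.25, adjusted p = 0.0046) for 61H/H over 61Q/Q and 1.43 (SE 0.25, adjusted p = 0.0188) for 61P/P over 61Q/Q by edgeR's quasi-likelihood test. In 61R/R cultures Tbx4 was at 9.53, 14.4 and 9.00 CPM, which overlapped 61Q/Q (0.54, SE 0.24, adjusted p = 0.139). The 61P/P call was lost without 61P/P replicate 2 (adjusted p = 0.0604), 61Q/Q replicate 1 (0.0596) or 61Q/Q replicate 3 (0.101).

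Pitx1, a homeodomain factor that specifies the hindlimb (chr13:55825054-55831425, minus strand, 3 exon blocks), was at 20.5, 12.2 and 12.6 CPM in 61H/H cultures and 14.8, 24.5 and 17.8 CPM in 61P/P cultures, against 9.50, 8.81 and 7.13 CPM in 61Q/Q cultures. The groups did not overlap, and the log2 fold changes were 0.83 (SE 0.24, adjusted p = 0.0283) in 61H/H cultures and 1.17 (SE 0.25, adjusted p = 0.0263) in 61P/P cultures. Pitx1 in 61R/R cultures was 9.84, 12.7 and 8.27 CPM, at a log2 fold change of 0.28 over 61Q/Q (SE 0.24, adjusted p = 0.441). The 61H/H call was lost without 61H/H replicate 1 (0.55, adjusted p = 0.117), 61Q/Q replicate 1 (0.92, 0.0581) or 61Q/Q replicate 3 (0.72, 0.108). Of all genes, 2198, 2173 and 1879 were called in those fits, against 4451 with all 12 libraries. The call was also lost without both 61R/R replicate 1 and 61Q/Q replicate 2 (0.86, 0.0517). The 61P/P call was lost without 61P/P replicate 2 (0.95, adjusted p = 0.0800), 61Q/Q replicate 1 (1.25, 0.0710) or 61Q/Q replicate 3 (1.05, 0.124).

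Tbx5, the forelimb counterpart of Tbx4 (chr5:119834663-119885218, plus strand, 9 exon blocks), did not pass edgeR's test in any comparison of the main fit, which had all 12 libraries and no replicate block. Its levels were 6.12, 5.94 and 4.15 CPM in 61R/R cultures, 8.36, 5.08 and 4.56 CPM in 61H/H cultures and 14.6, 9.80 and 6.34 CPM in 61P/P cultures, against 5.56, 6.05 and 3.85 CPM in 61Q/Q cultures. All 3 61P/P cultures were above the highest 61Q/Q culture, with 61P/P replicate 1 far above the others (log2 fold change 0.99, SE 0.32, adjusted p = 0.0782). This change passed with DESeq2 (0.98, adjusted p = 0.0167) and in edgeR's fit without 61P/P replicate 3 (1.24, adjusted p = 0.0431). It also passed in edgeR's fit with a replicate block (0.94, adjusted p = 0.0259). DESeq2 also called Tbx5 lower in 61R/R than in 61P/P cultures (-0.92, adjusted p = 0.0346). The ratio of Tbx5 to Tbx4 CPM, taken within each library, was 0.506 ± 0.121 in 61R/R cultures, 0.299 ± 0.010 in 61H/H cultures and 0.516 ± 0.243 in 61P/P cultures, against 0.683 ± 0.0355 in 61Q/Q cultures (SD, n = 3 each). The 61P/P cultures differed among themselves in it, at 0.773, 0.485 and 0.290. The ratio was described and not tested.

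The LIM-homeodomain pair Lhx2 and Lhx9, which act in the distal limb mesenchyme and let it answer ridge FGFs, was also higher in 61H/H cultures. Lhx2 (chr2:38339281-38369737, plus strand, 6 exon blocks) was at 5.70, 3.22 and 2.77 CPM in 61H/H cultures and 3.38, 2.63 and 3.12 CPM in 61P/P cultures, against 1.63, 1.53 and 1.56 CPM in 61Q/Q cultures, with no overlap. The log2 fold change was 1.30 in 61H/H (SE 0.26, adjusted p = 0.00612) and 0.95 in 61P/P cultures (SE 0.26, adjusted p = 0.0494). The 61P/P value lay at the threshold: without 61Q/Q replicate 3 its adjusted p was 0.167, it was lost in 8 of the 12 fits that left out 1 library, and it was 0.0683 without both 61R/R replicate 1 and 61Q/Q replicate 2. In 61R/R cultures Lhx2 was at 1.47, 1.83 and 1.22 CPM, around the 61Q/Q levels (log2 fold change -0.06, SE 0.26, adjusted p = 0.879).

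Lhx9 (chr1:138825186-138847579, minus strand, 8 exon blocks) was at 53.4, 33.9 and 30.7 CPM in 61H/H cultures and 33.3, 36.5 and 43.4 CPM in 61P/P cultures, against 26.2, 24.2 and 20.9 CPM in 61Q/Q cultures. Every 61H/H and 61P/P culture was above every 61Q/Q culture. The 61H/H change passed (0.73, SE 0.19, adjusted p = 0.0197), and was lost without 61H/H replicate 1 (0.44, 0.0671) or 61Q/Q replicate 3 (0.64, 0.0812), while the 61P/P change did not pass in the main fit (0.67, SE 0.19, adjusted p = 0.0607). The 61P/P change passed with DESeq2 (0.66, adjusted p = 0.0121). In edgeR it passed with only the 2 genotypes in the fit (0.67, 0.0413) and without 61H/H replicate 1 (0.67, 0.0254). In 61R/R cultures Lhx9 was at 20.7, 21.6 and 16.2 CPM (log2 fold change -0.29 over 61Q/Q, SE 0.20, adjusted p = 0.312). Set against each other, 61R/R cultures were below 61P/P cultures in Lhx9 by the direct test (log2 fold change -0.95, SE 0.20, adjusted p = 0.0318), a call lost without either 61R/R replicate 2 or 3 or any 61P/P culture (adjusted p between 0.0504 and 0.164).

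Of the dorsal and ventral regulators, En1 fell in all 3 mutants and Lmx1b passed in none with all 12 libraries in edgeR's fit. En1, an engrailed homeodomain factor that also marks a dermal fibroblast lineage of the back (chr1:120602487-120607991, plus strand, 2 exon blocks), was at 10.98, 6.55 and 7.86 CPM in 61R/R cultures, 3.99, 5.13 and 5.74 CPM in 61H/H cultures and 6.20, 5.93 and 5.77 CPM in 61P/P cultures, against 12.3, 13.7 and 15.3 CPM in 61Q/Q cultures. Each of the 9 mutant cultures was below the lowest 61Q/Q culture. The log2 fold change was -0.71 in 61R/R cultures (SE 0.18, adjusted p = 0.0266), -1.48 in 61H/H (SE 0.18, adjusted p = 0.0043) and -1.21 in 61P/P cultures (SE 0.18, adjusted p = 0.0152). The 61R/R call was lost without 61R/R replicate 2 (adjusted p = 0.115), 61R/R replicate 3 (0.110), 61Q/Q replicate 1 (0.0814) or 61Q/Q replicate 3 (0.109), and with only the 2 genotypes in the fit (0.0803). The 61P/P call was lost without 61P/P replicate 2 (0.0604) or 61Q/Q replicate 3 (0.0840), whereas the 61H/H call held without any 1 library. The En1 promoter printed above is the one with 2 E-boxes and an ETS core.

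Lmx1b, the dorsal LIM-homeodomain factor (chr2:33564536-33640511, minus strand, 8 exon blocks), was at 2.54, 1.86 and 2.03 CPM in 61R/R cultures, 3.52, 2.04 and 1.97 CPM in 61H/H cultures and 3.28, 2.43 and 2.64 CPM in 61P/P cultures, against 1.59, 2.05 and 0.818 CPM in 61Q/Q cultures. The 61P/P cultures lay above all 61Q/Q cultures, and 61Q/Q replicate 3 was the lowest of all 12. Its log2 fold change over 61Q/Q was 0.53 for 61R/R cultures (SE 0.32, adjusted p = 0.256), 0.76 for 61H/H (SE 0.32, adjusted p = 0.0960) and 0.91 for 61P/P cultures (SE 0.32, adjusted p = 0.0995). Without 61Q/Q replicate 2, the highest 61Q/Q culture, it passed for 61H/H (1.06, adjusted p = 0.0340) and for 61P/P (1.21, adjusted p = 0.0390). Leaving out 61R/R replicate 1 as well gave adjusted p-values of 0.0352 for 61H/H cultures (1.06) and 0.0345 for 61P/P cultures (1.21). DESeq2 called it in 61P/P cultures (0.90, adjusted p = 0.0391). C130021I20Rik, the annotated gene whose start lies 0.7 kb from that of Lmx1b, was at 13.9, 9.87 and 6.86 CPM in 61H/H cultures and 13.3, 10.2 and 10.9 CPM in 61P/P cultures, against 5.32, 8.02 and 4.77 CPM in 61Q/Q cultures. It passed in 61H/H (0.76, SE 0.25, adjusted p = 0.0411) and in 61P/P cultures (0.92, SE 0.25, adjusted p = 0.0490), both near the threshold: each call was lost in 8 of the 12 fits that left out 1 library, with an adjusted p of up to 0.171 in 61H/H and 0.184 in 61P/P cultures.

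Tfap2a, an AP-2 factor of ectoderm, neural crest and facial and limb mesenchyme (chr13:40715303-40734920, minus strand, 9 exon blocks), rose in 61H/H cultures. It was at 15.3, 17.4 and 16.0 CPM in 61H/H cultures, against 10.2, 10.99 and 10.0 CPM in 61Q/Q cultures, so that the groups were separate (log2 fold change 0.64, SE 0.14, adjusted p = 0.00796). In 61R/R cultures it was at 10.4, 11.4 and 9.33 CPM (adjusted p = 0.984) and in 61P/P cultures at 9.36, 13.0 and 14.1 CPM (log2 fold change 0.23, SE 0.14, adjusted p = 0.311). The 61H/H call held without any 1 library. Exons of Tfap2a share 380 bases with those of Gm26688 on the opposite strand, which averaged 0.151 CPM, and the strand setting of the counting is not given in the sources used here. Within the ectoderm markers given above, Krt18 was the one over 1 CPM.

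Shox2, a homeodomain factor needed for the proximal limb skeleton (chr3:66971723-66981771, minus strand, 7 exon blocks), was at 26.2, 23.3 and 20.4 CPM in 61R/R cultures, 20.8, 20.6 and 26.2 CPM in 61H/H cultures and 16.9, 27.0 and 22.4 CPM in 61P/P cultures, against 27.3, 30.4 and 31.7 CPM in 61Q/Q cultures. All 9 mutant cultures were below the lowest 61Q/Q culture. The differences did not pass the test in the main fit, at log2 fold changes of -0.36 (SE 0.16, adjusted p = 0.132) in 61R/R cultures, -0.40 (SE 0.16, adjusted p = 0.0777) in 61H/H cultures and -0.43 (SE 0.16, adjusted p = 0.111) in 61P/P cultures. The 61H/H change passed with DESeq2 (-0.41, adjusted p = 0.0487). In edgeR it passed with only the 2 genotypes in the fit (-0.40, 0.0330) and without 61P/P replicate 1 (-0.40, 0.0295).

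Lmbr1, a membrane protein gene whose intron holds the limb enhancer of Shh (chr5:29229802-29378390, minus strand, 17 exon blocks), fell in 61H/H cultures. It was at 7.01, 6.73 and 8.18 CPM in 61H/H cultures, against 14.6, 12.6 and 13.9 CPM in 61Q/Q cultures, with a log2 fold change of -0.91 (SE 0.10, adjusted p = 0.0043) that held without any 1 library. In 61R/R cultures it was at 11.98, 12.3 and 12.1 CPM (-0.18, SE 0.10, adjusted p = 0.221) and in 61P/P cultures at 11.2, 13.3 and 13.5 CPM (-0.11, SE 0.10, adjusted p = 0.499). The 61H/H cultures were also below the 61P/P cultures by the direct test (-0.79, SE 0.10, adjusted p = 0.0127), a call lost without 61H/H replicate 2 (0.0933) or 61P/P replicate 2 (0.0653). The next gene on 1 side, Nom1, whose start lies 56.3 kb away, averaged 37.6 CPM and had a log2 fold change of -0.02 in 61H/H cultures (SE 0.05, adjusted p = 0.800). On the other side Rnf32 averaged 0.373 CPM (0.08, SE 0.35, adjusted p = 0.886), and Shh did not pass the filter on low counts.

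**Figure D2:**
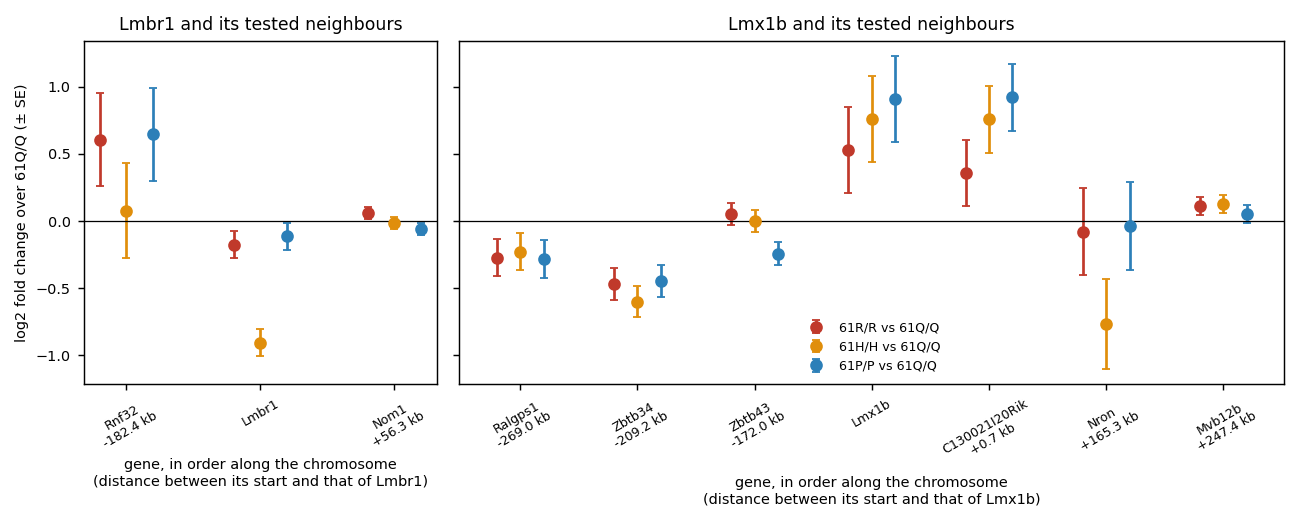
Log2 fold change over 61Q/Q (y axis, ± SE) of Lmbr1 and Lmx1b and of the tested genes among the 3 annotated on each side, in their order along the chromosome. Lmbr1 is at -0.91 in 61H/H cultures while Nom1 is at -0.02, and C130021I20Rik, 0.7 kb from the start of Lmx1b, has values close to those of Lmx1b.

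Counted together, 5 of the 10 regulators were called higher (Tbx4, Pitx1, Lhx2, Lhx9 and Tfap2a) and 2 lower (En1 and Lmbr1) in 61H/H over 61Q/Q, where 13.8% of all genes were called higher and 14.5% lower. In 61P/P over 61Q/Q, 3 were called higher (Tbx4, Pitx1 and Lhx2) and 1 lower (En1), against 3.15% and 3.69% of all genes. In 61R/R over 61Q/Q, 0 were called higher and 1 lower (En1), against 9.43% and 9.59% of all genes, and 3 regulators had an unadjusted p under 0.05 in edgeR while DESeq2 and limma-voom each called 1. Over 61Q/Q, the median log2 fold change of the 10 regulators stood at -0.03 for 61R/R cultures, 0.68 for 61H/H cultures and 0.79 for 61P/P cultures, and that of all genes was 0.01 in each. The 61P/P count depended on the fit: it was 0 without 61P/P replicate 2, 0 without 61Q/Q replicate 3, 1 without 61Q/Q replicate 1 and 7 with DESeq2. Of all genes, 5, 0, 58 and 2433 were called in these fits, against 1079 in the main fit. In the fits with 0 regulators called, 8 and 6 regulators had an unadjusted p under 0.05 in edgeR, beside 3611 and 2981 of all genes. The 61R/R count was 0 without 61R/R replicate 2 or 3 or 61Q/Q replicate 1 or 3, edgeR fits in which 0 of all genes were called. In these fits 1 or 2 regulators had an unadjusted p under 0.05, beside 3960 to 4143 of all genes.

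**Figure D3:**
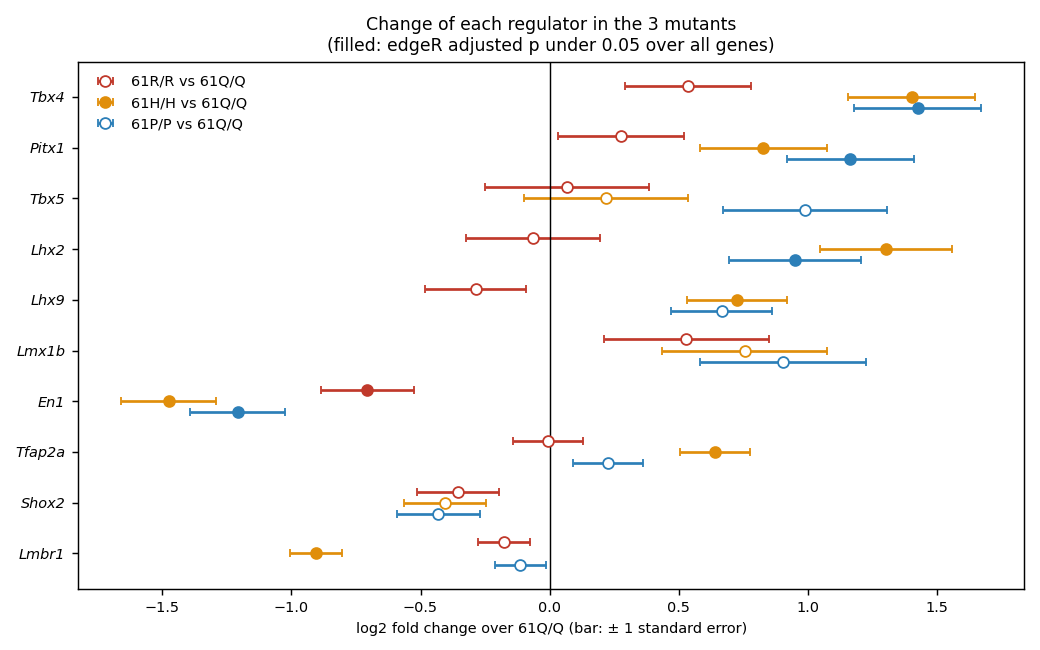
Log2 fold change over 61Q/Q (x axis, ± 1 SE) of each regulator in 61R/R cultures, 61H/H and 61P/P cultures, filled where the adjusted p of edgeR's test over all genes was under 0.05. En1 is filled in all 3 mutants, Lmbr1, Lhx9 and Tfap2a in 61H/H alone, and the 3 comparisons share the 61Q/Q cultures.

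Without regard to the test, the 3 61H/H cultures were above all 61Q/Q cultures for 5 regulators and below for 3, in a comparison where 24.5% of all genes were above and 23.5% below. The corresponding counts were 6 above and 2 below in 61P/P against 61Q/Q (13.9% and 14.8% of all genes), and 0 above and 3 below in 61R/R against 61Q/Q (17.9% and 19.2%). Between mutants, 1 regulator was above and 5 below in 61R/R against 61P/P (12.9% and 13% of all genes). By edgeR 0 were called higher and 1 lower there (1.85% and 1.6%), and 6 had an unadjusted p under 0.05, as had 3661 of all genes. DESeq2 called 5 of them, and 1670 of all genes. Of the 5 that were below, Lhx2 (-1.01, SE 0.26, adjusted p = 0.0533), Tbx4 (-0.89, SE 0.24, adjusted p = 0.0666) and Pitx1 (-0.89, SE 0.24, adjusted p = 0.0676) missed the threshold. In 61H/H against 61P/P, 1 was above and 2 were below (17% and 16.2% of all genes). By edgeR 0 were called higher and 1, Lmbr1, lower in that comparison (1.47% and 1.02%), and 3 had an unadjusted p under 0.05, as had 3878 of all genes. DESeq2 called 2 regulators and 1863 of all genes. For Tbx4 this difference was -0.02 (SE 0.24, adjusted p = 0.965) and for En1 -0.27 (SE 0.18, adjusted p = 0.394).

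Between 61R/R and 61H/H cultures, the contrast in view when the genes were chosen, the log2 fold change was -1.37 for Lhx2, -1.01 for Lhx9, -0.87 for Tbx4, -0.64 for Tfap2a, -0.55 for Pitx1, -0.23 for Lmx1b and -0.15 for Tbx5. It was 0.77 for En1, 0.73 for Lmbr1 and 0.05 for Shox2. In that contrast 2 regulators were above and 4 below without overlap, beside 5.62% and 6.92% of all genes, and nothing is read from these counts. A split of the 12 cultures into 61H/H and 61P/P on one side and 61R/R and 61Q/Q on the other, noticed after the values were seen and containing that contrast, left Lhx2, Lhx9 and Tbx4 higher and En1 lower without overlap, beside 0.698% and 0.47% of all genes. This split is given as a description, and nothing is read from these shares. The ratio of Lhx9 to En1 CPM, which combines a gene from each direction, was 2.41 ± 0.770 in 61R/R cultures, 8.40 ± 4.28 in 61H/H cultures and 6.33 ± 1.09 in 61P/P cultures, against 1.75 ± 0.377 in 61Q/Q cultures (SD, n = 3 each). Because its genes were taken by the direction of their change in these data, its spread between genotypes follows from that choice. The ratio is a description and was not tested.

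**Figure D4:**
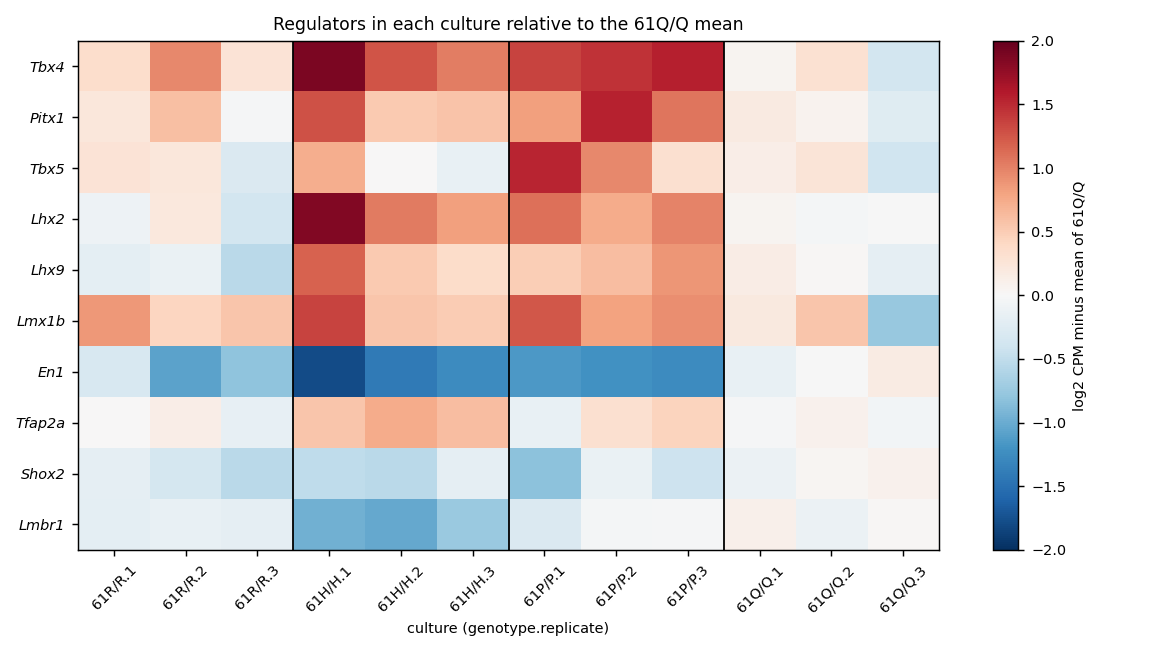
Log2 CPM of each regulator (rows) in each of the 12 cultures (columns) minus its mean in the 61Q/Q cultures, in red where higher and blue where lower. 61H/H replicate 1 has the highest Tbx4, Lhx2 and Lhx9 and the lowest En1 of the 12 cultures.

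Cultures of the same genotype differed more in 9 of these regulators than in the median gene. The SD of log2 CPM within genotypes was 0.445 for Tbx5, 0.438 for Lmx1b, 0.338 for Tbx4, 0.337 for Pitx1, 0.322 for Lhx2 and 0.271 for Lhx9, beside a median of 0.156 over all genes. Lmbr1 was below that median, at 0.119. Among genes of like level, 93.5% had a smaller spread than Tbx5, 93.2% than Tbx4, 92.5% than Pitx1 and 92.1% than Lhx9, but 63.2% than Lhx2.

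Several of the regulators varied together from culture to culture. After the genotype means were taken out, Pearson's r over the 12 libraries was 0.83 between Lhx2 and Lhx9, 0.83 between Lhx9 and Tbx4, 0.78 between Tbx4 and Pitx1, 0.72 between Tbx5 and Lmx1b and -0.76 between Tbx4 and En1. These coefficients share libraries and are descriptions. Without that step, the genes most like each regulator among 12479 genes included another limb gene for 3 of them: Lhx9 for Lhx2 (r = 0.94), Lhx2 for Lhx9 (r = 0.94) and Hoxd12 for Tbx4 (r = 0.98). The single gene most like En1 was Tnc (r = 0.98), which encodes the matrix protein tenascin C, while that most like Pitx1 was Crabp2 (r = 0.95), a retinoic acid carrier. Tfap2a and Shox2 had looser neighbours, with the best at 0.91 (Klk10 and Prr14).

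Other limb patterning genes were taken from a list of 52 set by role, of which 45 were tested. In 61H/H over 61Q/Q 4 were called higher and 9 lower, in 61P/P over 61Q/Q 3 higher and 1 lower, and in 61R/R over 61Q/Q 3 higher and 6 lower. The shares of all genes called higher and lower, given above, were 13.8% and 14.5% for the first of these comparisons, 3.15% and 3.69% for the second and 9.43% and 9.59% for the third. Fgf10, the mesenchymal ligand that induces and maintains the ridge, was called higher in all 3 mutants. It was at 35.8, 73.2 and 70.7 CPM in 61R/R cultures, 126, 71.2 and 82.8 CPM in 61H/H cultures and 66.0, 65.1 and 75.2 CPM in 61P/P cultures, against 21.1, 19.2 and 13.1 CPM in 61Q/Q cultures. The groups did not overlap, at log2 fold changes of 1.75 (SE 0.29, adjusted p = 0.0194) in 61R/R cultures, 2.39 (SE 0.29, adjusted p = 0.0043) in 61H/H cultures and 1.95 (SE 0.29, adjusted p = 0.0152) in 61P/P cultures. The 61H/H call held without any 1 library, that in 61R/R cultures was lost without 61R/R replicate 2 or 3 or 61Q/Q replicate 1 or 3 (adjusted p of up to 0.0986), and that in 61P/P cultures without 61P/P replicate 2 or 61Q/Q replicate 3 (up to 0.0840).

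Fgf9, a ligand of ridge and other epithelia, was at 2.08, 0.449 and 0.677 CPM in 61R/R cultures, 0.352, 0.521 and 0.608 CPM in 61H/H cultures and 0.808, 1.45 and 1.55 CPM in 61P/P cultures, against 2.73, 3.25 and 3.29 CPM in 61Q/Q cultures. All 9 mutant cultures were below all 61Q/Q cultures. Its log2 fold change was -1.53 in 61R/R cultures (SE 0.47, adjusted p = 0.0435) and -2.64 in 61H/H cultures (SE 0.50, adjusted p = 0.00542), while the 61P/P change did not pass (-1.28, SE 0.47, adjusted p = 0.106). The 61H/H call for Fgf9 held without any 1 library, whereas that for 61R/R was lost in 10 of 12 such fits. Msx1, a homeodomain target of BMP signalling, was highest in 61P/P cultures at 12.8, 7.66 and 7.34 CPM, against 4.48, 4.92 and 4.15 CPM in 61Q/Q cultures (1.04, SE 0.19, adjusted p = 0.0206). It was lower in 61R/R than in 61P/P (-0.92, SE 0.19, adjusted p = 0.0318) and lower in 61H/H than in 61P/P cultures (-0.85, SE 0.19, adjusted p = 0.0445). Dlx5, a ridge and skeletal homeodomain factor, was also called higher in 61P/P cultures (0.82, SE 0.19, adjusted p = 0.0335), and Pax9 in 61R/R cultures (0.62, SE 0.16, adjusted p = 0.0290). Of the 12 fits that left out 1 library, the Msx1 call was lost in 3 for 61P/P over 61Q/Q, in 5 for 61R/R over 61P/P and in 9 for 61H/H over 61P/P, that for Dlx5 in 7 and that for Pax9 in 4.

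Of 11 proximal-distal genes, which include the TALE factors of the Meis and Pbx families and retinoic acid genes, 6 were called lower and 1 higher in 61H/H over 61Q/Q, with a median log2 fold change of -0.57. In 61R/R over 61Q/Q 3 were called lower and 0 higher (median -0.51), and in 61P/P over 61Q/Q 1 was called lower and 0 higher (median -0.0041), to be set beside the same shares of all genes. Emx2, needed for the scapula, was at 6.03, 9.90 and 10.9 CPM in 61H/H cultures and 5.85, 9.58 and 6.77 CPM in 61P/P cultures, against 18.5, 16.8 and 19.9 CPM in 61Q/Q cultures. Its log2 fold change was -1.04 in 61H/H (SE 0.23, adjusted p = 0.00966) and -1.32 in 61P/P cultures (SE 0.23, adjusted p = 0.0198). Meis3 was called lower in 61R/R cultures (-0.54, SE 0.14, adjusted p = 0.0287) and in 61H/H cultures (-0.67, SE 0.14, adjusted p = 0.00824). The 61H/H calls for Emx2 and Meis3 held without any 1 library, while the 61P/P call for Emx2 and the 61R/R call for Meis3 were each lost in 4 of the 12 fits. The number of listed genes called without 1 library ran between 0 and 12 in 61R/R, between 5 and 15 in 61H/H and between 0 and 7 in 61P/P over 61Q/Q. Of all genes, 0 to 4538, 1879 to 5490 and 0 to 2397 were called in those fits. Of 10 anterior-posterior genes tested, 0 were called in 61H/H or 61P/P and 1, Pax9, in 61R/R cultures over 61Q/Q. Between 61R/R and 61P/P cultures 0 of the 45 were called higher and 4 lower (Tbx15, Msx1, Bmp4 and Prrx2), beside 1.85% and 1.6% of all genes. Bmp4 was at 18.6, 12.2 and 9.74 CPM in 61R/R cultures, against 57.5, 28.6 and 29.7 CPM in 61P/P cultures (-1.52, SE 0.36, adjusted p = 0.0465, lost in 8 of the 12 fits).

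**Figure D5:**
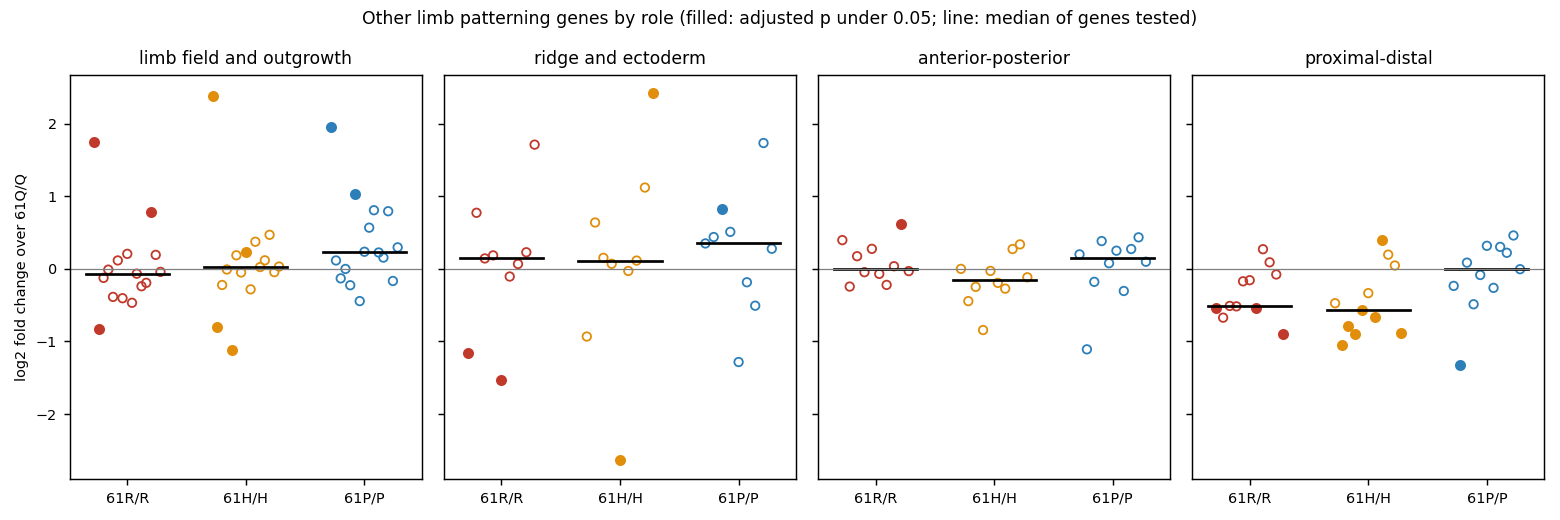
Log2 fold change over 61Q/Q (y axis) of the 45 other limb genes tested, by role and mutant, filled where the adjusted p was under 0.05 and with a line at the median. The proximal-distal medians are -0.51 for 61R/R cultures, -0.57 for 61H/H cultures and -0.0041 for 61P/P cultures, and the highest limb field point in each mutant is Fgf10.

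Genes beside the regulators on their chromosomes were counted in the same way. Of the 3 annotated genes on each side of the 10 (60 genes, 44 tested), 2 were called higher and 4 lower in 61H/H, 2 higher and 1 lower in 61P/P, and 3 higher and 1 lower in 61R/R cultures over 61Q/Q. The shares of all genes called higher and lower were 13.8% and 14.5% in the first of these comparisons, 3.15% and 3.69% in the second and 9.43% and 9.59% in the third. Steap3, whose start lies 331.4 kb from that of En1, was called higher in all 3 mutants, with log2 fold changes of 0.69 for 61R/R cultures (adjusted p = 0.0234), 0.85 for 61H/H (0.00614) and 0.81 for 61P/P cultures (0.0251). Its 61H/H call held without any 1 library and the other two were each lost in 4 of the 12 fits. Tbx2, the T-box gene beside Tbx4 with its start 57.4 kb away, was called higher in 61R/R cultures (0.79, SE 0.25, adjusted p = 0.0491), a call lost in 10 of the 12 fits.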

How the data were processed

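RNA was depleted of ribosomal RNA and sequenced from a stranded total RNA kit. The authors aligned reads to mm10 with STAR, and the submitters' processing notes also name Picard 2.17.11, featureCounts and DESeq2. The deposited table held raw counts per gene, used as deposited, and a Length column in bases (a unit of other kind in the deposited file), used for CPM per kilobase. The authors' normalised table was not used.

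Genes with low counts were removed by edgeR's filterByExpr (15759 of 24419 kept), libraries were scaled by TMM, and a model with 1 mean for each of the 4 genotypes over all 12 libraries was fitted with edgeR 4.0.16 (quasi-likelihood test, R 4.3.3). P-values were adjusted over all genes tested by Benjamini-Hochberg, with a threshold of 0.05. The fit was tested on simulated data. CPM are TMM-scaled, and a group's error is the SD of 3 cultures.

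The members and lists were chosen with earlier results of these data known. All 10 were named; of 52 other limb genes, up to 4 per comparison with the smallest p and a mean of at least 1 CPM were named, with the 3 genes most like each member and the 3 annotated neighbours on each side, and Steap3, C130021I20Rik and Tbx2 were picked from the neighbours after their values were seen. Alternatives were other scalings and filters, DESeq2 1.42.0, limma-voom (limma 3.58.1), a replicate block, 2 genotypes alone and leaving out libraries. Promoters came from RefSeq (GRCm38.p6).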

Additional observations from a re-analysis of the deposited data

Results flagged for a closer look

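For 2 regulators the effects of 2 mutants differed by the direct test between them. Lhx9 was lower in 61R/R than in 61P/P cultures (log2 fold change -0.95, adjusted p = 0.0318, edgeR), and Lmbr1 was lower in 61H/H than in 61P/P cultures (-0.79, adjusted p = 0.0127, edgeR). Each of these genes was separate in all 3 cultures against all 3.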

How the results depend on the processing

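Each log2 fold change and each count of regulators called was recomputed under 10 other settings and without each library. The count was unchanged in the comparison of 61H/H with 61Q/Q apart from 8 with DESeq2 and with only the 2 genotypes in the fit, 6 without 61H/H replicate 1 and 61P/P replicate 1, and 5 to 8 when 1 library was left out. Called among all genes were 5252 with DESeq2, 4483 with the 2 genotypes, 3129 without both libraries and 1879 to 5490 without 1 library. Elsewhere the count moved. With only the 2 genotypes in the fit it was 0 in 61R/R over 61Q/Q, where 0 of all genes were called. It was also 0 in 61R/R over 61P/P, where 49 of all genes were called. In 61P/P over 61Q/Q it was 5 with only the 2 genotypes (478 of all genes). There it fell to 3 with RLE scaling and with limma-voom (1058 and 1101 of all genes), where Lhx2 was lost (adjusted p = 0.0501 and 0.0698). DESeq2 called 7 in 61P/P over 61Q/Q, 5 in 61R/R over 61P/P and 2 in 61H/H over 61P/P, beside 2433, 1670 and 1863 of all genes. A minimum of 1 CPM in all libraries gave 2 in 61R/R over 61P/P (535 of all genes), as did leaving out 61H/H replicate 1 and 61P/P replicate 1 (176). The cause was not tested. Without 1 library the count ran between 0 and 1 in 61R/R over 61Q/Q, 0 and 5 in 61P/P over 61Q/Q, 0 and 4 in 61R/R over 61P/P and 0 and 1 in 61H/H over 61P/P. Of all genes, 0 to 4538, 0 to 2397, 0 to 1465 and 0 to 1260 were called in those fits.

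Some signs turned. Tfap2a in 61R/R over 61Q/Q was 0.00051 with upper quartile scaling, 0.00017 with no filter and 0.0326 without 61R/R replicate 1 and 61Q/Q replicate 2, where Shox2 in 61R/R over 61P/P was -0.0171. Leaving out 1 library gave, in 61R/R over 61Q/Q, -0.23 to 0.0679 for Lhx2, -0.0740 to 0.0672 for Tfap2a and -0.10 to 0.23 for Tbx5, and -0.10 to 0.38 for Tbx5 in 61H/H over 61Q/Q. It gave -0.0852 to 0.24 for Shox2 in 61R/R over 61P/P. In 61H/H over 61P/P it gave -0.0232 to 0.55 for Lhx2, -0.22 to 0.21 for Lhx9, -0.31 to 0.14 for Tbx4, -0.13 to 0.20 for Shox2 and -0.47 to 0.00039 for Lmx1b. Lhx2 in 61H/H over 61P/P (0.35, SE 0.25) and Tbx5 in 61H/H over 61Q/Q (0.22) turned without 61H/H replicate 1. Without 61H/H replicate 1 and 61P/P replicate 1, Tbx5 in 61H/H over 61Q/Q was -0.0902, Shox2 in 61R/R over 61P/P -0.0912, and in 61H/H over 61P/P Lhx9 was -0.31 and Shox2 -0.0811.

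The study's methods name no pairing of samples by replicate number. The replicate numbers used here are those of the sample descriptions, whereas the sample titles number the 61H/H, 61P/P and 61Q/Q cultures differently. The block below therefore rests on an order within each genotype that need not mark shared batches. Deviations from the genotype means correlated between -0.21 and 0.54 over 18 pairs with the same number, over 0.1 in 6. Of the 12 libraries, 6 correlated best with their own number. These mixed values cannot decide whether the samples were paired. With a replicate block the count was 1 in 61R/R cultures, 7 in 61H/H cultures and 5 in 61P/P cultures over 61Q/Q, 5 in 61R/R over 61P/P and 2 in 61H/H over 61P/P. Of all genes, 3158, 4551, 990, 1005 and 1003 were called with the block in these comparisons. Tbx5 was then called in 61P/P over 61Q/Q (0.94, adjusted p = 0.0259), 61R/R over 61P/P (-0.87, 0.0186) and 61H/H over 61P/P (-0.74, 0.0360). Lmx1b had the fewest reads, at 65 to 300 per library.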
